A study of Mus musculus with 6 samples.

Results

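Heterotrimeric G proteins carry signals from receptors of the cell surface into the cell, and their α subunits are sorted by sequence and effector into the Gs, Gi/o/z, Gq/11 and G12/13 classes. The 9 genes described here are those of the Gs class (Gnas and Gnal), the Gi/o/z class (Gnai1, Gnai2, Gnai3, Gnao1 and Gnaz) and the G12/13 class (Gna12 and Gna13), in mouse embryonic fibroblasts (MEFs) with and without a knock-out aimed at the remaining class. They were found by their Ensembl identifiers in GENCODE and make up 9 of the 56953 genes of the deposited table. The α subunits of vision and taste (Gnat1, Gnat2 and Gnat3) were not among the chosen genes.

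Gs proteins switch on adenylyl cyclases, which make the messenger cyclic AMP (cAMP), and Gi proteins switch several of these cyclases off. cAMP acts through protein kinase A (PKA) and Epac and is broken down by phosphodiesterases. G12 and G13 act on the actin cytoskeleton and are known in fibroblasts for their part in stress fibers and contraction.

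RNA was sequenced from 3 libraries labelled WT and 3 labelled GαqKO, both of MEFs kept in the same serum-containing medium. The methods of the study describe the 2 kinds of cells as wild-type MEFs and Gαq/11 knock-out MEFs received from another laboratory, and the 3 libraries of each genotype as biological replicates. As far as the sources state, the libraries of a genotype come from 1 line, so genotype and line cannot be told apart and p-values measure the spread between libraries of that line. Gnaq, the gene of Gαq, was not lower in the libraries labelled GαqKO (1690.8 ± 48.5 and 1926.3 ± 36.0 normalized counts, SD, n = 3 each), whereas Gna11, the gene of Gα11, went from 2147.9 ± 29.0 to 451.6 ± 28.7 (SD, n = 3 each). The counts are per whole gene, so a knock-out that leaves a transcript is not visible in them. Every direction below is therefore drawn from the labels.

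The values are normalized counts, that is, gene counts that the authors divided by a size factor for each library, and they summed to between 11392429 and 11483486 per library. Of 12 fibroblast markers 11 were tested, of which 6 rose and 5 fell in GαqKO, where 31.8% of all 14096 genes tested rose and 34.1% fell, and their summed level was 85781.6 to 91671.4 in WT and 64769.2 to 68075.9 in GαqKO. That sum is carried by abundant genes that fell, such as Vim (41784.9 and 33507.6) and Col1a1 (16671.0 and 5774.5). Among the 6 that rose, Pdgfra went from 19.6 to 2319.7 (means of 3 libraries). Fap was at or under the floor of 3 normalized counts in both groups and Thy1 in WT. The summed level of 6 epithelial markers was 515.0 to 540.9 in WT and 10.1 to 23.1 in GαqKO, with Krt5 at the floor in both and Krt8, Krt18 and Krt14 at the floor in GαqKO. For 6 neural markers the sums were 802.1 to 909.3 and 532.7 to 566.6, for 6 haematopoietic markers 104.4 to 115.0 and 69.5 to 104.1, and for 5 endothelial markers 12.6 to 23.0 and 18.8 to 26.6. The part of these marker differences in the results below was not tested, and in bulk RNA fewer cells of a type and less RNA per cell cannot be told apart.

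The C-terminal end of a Gα subunit takes part in the choice of receptor and, in most Gi and Go proteins, carries the cysteine that pertussis toxin modifies. The end of the coding sequence therefore shows how the classes differ. The last 30 coding bases of 8 genes were read from GRCm39 with the canonical GENCODE transcripts, 5′ to 3′ on the coding strand, with the codon 4 places from the end, the stop codon not counted, in capitals.
Gnas (chr2:174188152-174188181, + strand): atgcatctccgccaaTACgagctgctctaa
Gnai1 (chr5:18472017-18472046, - strand): aataacctaaaagacTGTggtctcttctaa
Gnai2 (chr9:107492834-107492863, - strand): aacaacctgaaggacTGTggcctcttctga
Gnai3 (chr3:108016738-108016767, - strand): aacaacttaaaggaaTGTgggctttattga
Gnao1 (chr8:94693654-94693683, + strand): aacaatctccggggcTGCggcttgtactga
Gnaz (chr10:74851015-74851044, + strand): aacaatctcaagtacATCggcctttgctga
Gna12 (chr5:140746304-140746333, - strand): gagaacctgaaagacATCatgctgcagtga
Gna13 (chr11:109287283-109287312, + strand): gacaacctgaagcagCTCatgctgcagtga
The capitals are a cysteine codon (TGT or TGC) in Gnai1, Gnai2, Gnai3 and Gnao1 and another codon in Gnas, Gnaz, Gna12 and Gna13. Each of these ends lies within 1 exon.

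Over the whole coding sequence Gnai1 was 78.7% identical to Gnai2 and 78.2% to Gnai3, Gnai2 was 73.9% identical to Gnai3, and Gna12 was 68.8% identical to Gna13, each as a share of the aligned bases. The longest exact run shared by any of the 36 pairs of the 9 coding sequences was 35 bases, and the longest that Gnai1 shared with another member was 32 bases. The sequencing reads were 150 bases long and paired, so a run of this length does not fill a read.

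Of the 9 genes, 8 passed the filter on low values and were tested with limma, and 4 of these changed. Gnao1 and Gnas rose and Gnai1 and Gnai2 fell in the GαqKO libraries, while Gnai3, Gna12, Gna13 and Gnal did not pass the test. That is 50.0% of the tested members, where 65.8% of all 14096 genes tested passed the same threshold (adjusted p under 0.05), so the members were not called more often than genes at large. With a log2 fold change over 1 or under -1 as a further condition, 3 of the 8 (37.5%) passed, against 20.7% of all genes tested. The median log2 fold change of the 8 was 0.10, and that of all genes tested was -0.01. The plot of the levels shows the value of every library.

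**Figure D1:**
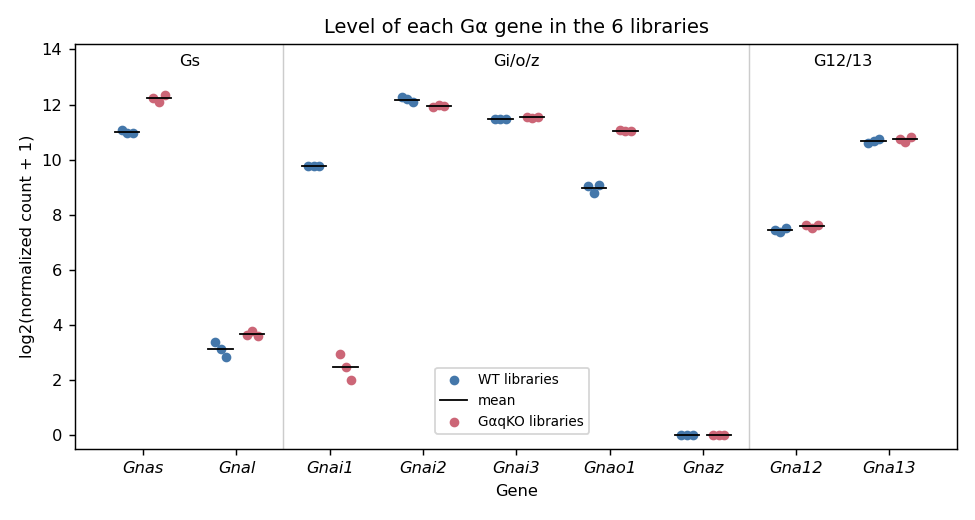
Level of each of the 9 Gα genes on the log2(normalized count + 1) scale, with 3 WT libraries (blue), 3 GαqKO libraries (red) and the mean of each group (black line), arranged by class. Gnai1 drops from close to 10 in WT to below 3 in GαqKO, Gnao1 and Gnas sit higher in all 3 GαqKO libraries, and Gnaz is at 0 throughout.

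Gnai1 encodes Gαi1, a close relative of Gαi2 and Gαi3, and showed the largest difference of the members. It lies on the minus strand of chromosome 5 from 18469193 to 18565655 and shares no exon bases with another gene. The WT libraries had 865.6, 863.6 and 870.3 normalized counts and the GαqKO libraries 6.6, 4.6 and 3.0. The groups were thus far apart, with WT within a narrow range and each GαqKO library close to the floor. The means were 866.5 ± 3.42 and 4.74 ± 1.78 (SD, n = 3 each), a ratio of 182.8 between them, and the log2 fold change was -7.29 (SE, standard error, 0.22, 95% interval -7.75 to -6.82, adjusted p = 3.69e-12 from limma). The size of the fold depends on a handful of reads. In the GαqKO libraries where whole reads could be recovered, replicate 1 had 7 reads (exact 95% Poisson interval 2.81 to 14.4) and replicate 2 had 4 (1.09 to 10.2), intervals that cover counting error only, against 829, 889 and 855 reads in WT.

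Around Gnai1 the picture was mixed. Within 1 Mb of its start site only 2 other genes were tested: Sema3c, which encodes a secreted semaphorin, fell by 1.68 on the log2 scale (adjusted p = 2.27e-11 from limma), and Magi2 had -0.38 (adjusted p = 0.309). Over 5 Mb on each side, the 18 genes whose mean reached 100 normalized counts had a median log2 fold change of 0.19, with 9 higher and 4 lower, where 31.8% and 34.1% of all genes tested were.

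Gnai2, whose product Gαi2 is the common Gi subunit of many tissues, fell by a small amount. The WT libraries had 4893.1, 4657.0 and 4332.0 normalized counts, and the GαqKO libraries 3868.8, 4065.3 and 3911.3. Every WT library was above every GαqKO library. The means were 4627.3 ± 281.7 and 3948.5 ± 103.4 (SD, n = 3 each), and the log2 fold change was -0.23 (SE 0.048, 95% interval -0.33 to -0.12, adjusted p = 0.000951). Under the other settings tried, the adjusted p of Gnai2 ran from 0.000115 to 0.0248. The gene lies on chromosome 9 from 107491324 to 107512626.

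Gnai3, which encodes Gαi3, had 2839.1, 2841.4 and 2862.2 normalized counts in WT and 3005.8, 2919.5 and 3030.2 in GαqKO. The groups did not overlap, but the gap was small beside the spread that limma assigns to genes of this level. The log2 fold change was 0.07 (SE 0.040, 95% interval -0.02 to 0.15, adjusted p = 0.152), and the upper end of that interval leaves room for a small rise only. Gnai3 lies on chromosome 3 (108014590 to 108053469), where the 505 other genes whose mean reached 100 normalized counts had a median log2 fold change of 0.32.

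Gnao1 encodes Gαo, best known as the abundant G protein of neurons, and rose. Its values were 529.4, 438.1 and 541.5 normalized counts in WT and 2141.9, 2091.6 and 2116.8 in GαqKO. All GαqKO libraries lay close together and far above the highest WT library. The means were 503.0 ± 56.5 and 2116.8 ± 25.1 (SD, n = 3 each), a 4.21-fold difference, with a log2 change of 2.08 (SE 0.072, 95% interval 1.92 to 2.23, adjusted p = 1.74e-11). Of the 6 neural markers 3 were tested. Tubb3 was lower (406.3 ± 35.5 and 60.9 ± 12.1 normalized counts, SD, n = 3 each), Map2 was not called (414.5, 468.2 and 411.2 in WT and 464.8, 475.2 and 471.3 in GαqKO) and Gfap was not called at a low level, so the lower sum of this list comes from Tubb3.

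Gnao1 lies on the plus strand of chromosome 8 from 94536594 to 94696016, and 11.1% of its exon bases fall inside other genes. The largest of these is 4930488L21Rik, a long non-coding RNA that runs the opposite way across the start of Gnao1. It had 2.1, 3.9 and 3.1 normalized counts in WT and 22.5, 15.0 and 19.1 in GαqKO. These values are low, and this RNA passed the filter only through the GαqKO libraries where it is high. Of the 15 neighbours within 1 Mb whose mean reached 100 normalized counts, 6 were higher and 3 lower with a median log2 fold change of 0.08, where 31.8% and 34.1% of all genes tested were, and Gnao1 stood 2.01 above the median (0.07) of the 42 well-expressed genes within 5 Mb.

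Gnaz, the pertussis toxin-insensitive member of the class, was listed at 0 in all 6 libraries and was not tested. All of its exon bases (100.0%) lie inside Rsph14, a gene on the opposite strand that was itself listed at between 0.0 and 1.0. Protein-coding genes that lie wholly inside a gene of the opposite strand were listed at 0 in 72.2% of 898 cases, against 25.2% of 11516 that overlap no gene. The 0 of Gnaz is therefore given as listed and not as absence of the transcript.

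The promoter of Gnai1, the member that moved farthest, is shown as the 250 bases before the canonical start on GRCm39, 5′ to 3′ on the strand of the gene. The annotated gene reaches to 18565655, upstream of the canonical start, so part of this window lies inside the gene. Capitals mark the GC box GGGCGG and the core TGACG of the cAMP response element, either strand. TGACG is also contained in the full element TGACGTCA.
Gnai1 (chr5:18565483-18565732, - strand): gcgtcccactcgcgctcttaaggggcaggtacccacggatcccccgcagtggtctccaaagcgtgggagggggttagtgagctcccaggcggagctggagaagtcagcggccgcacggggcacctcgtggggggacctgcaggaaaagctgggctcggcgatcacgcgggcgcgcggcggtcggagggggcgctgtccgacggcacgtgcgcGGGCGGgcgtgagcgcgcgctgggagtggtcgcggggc
The window is rich in CpG dinucleotides. It holds 33, where the median of 21651 such windows is 8, and 98.1% of the windows hold as many or fewer. It has 1 GC box and no TGACG. Of all windows 36.4% hold GGGCGG, 18.0% hold TGACG and 1.7% hold TGACGTCA.

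Gnas, the imprinted gene that encodes Gαs, rose. The WT libraries had 2161.5, 2003.1 and 1989.9 normalized counts and the GαqKO libraries 4891.4, 4344.0 and 5204.3. The lowest GαqKO library was above the highest WT library, and the GαqKO libraries were more spread out. The means were 2051.5 ± 95.5 and 4813.2 ± 435.5 (SD, n = 3 each), a 2.35-fold difference, with a log2 change of 1.23 (SE 0.061, 95% interval 1.10 to 1.36, adjusted p = 6.6e-10). The gene lies on the plus strand of chromosome 2 from 174126022 to 174188537, has several alternative first exons, and its count sums all of its transcripts, so the Gαs, XLαs and NESP55 products cannot be told apart. The antisense transcript Gnasas1 (48.0, 28.2 and 48.9 normalized counts in WT, 85.5, 63.6 and 78.5 in GαqKO) overlaps the first part of the gene, and 10.4% of the exon bases of Gnas lie inside other genes.

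The genes around Gnas were higher as well. Of 8 other genes with start sites within 1 Mb whose mean reached 100 normalized counts, 6 were higher and 0 lower, with a median log2 fold change of 1.35, where 31.8% of all genes tested were higher and 34.1% lower. At an unadjusted p under 0.05, limma also called 0 of them lower. All 15 tested genes of this window included low genes that passed the filter only through the GαqKO libraries where they are high, 3 of them under 10 normalized counts in every WT library, so no count is drawn from the whole set. Rab22a and Stx16, which act in endosomal traffic, had 1.45 and 1.43, and Vapb, a protein of the endoplasmic reticulum, 1.39. Atp5f1e had 1.69, Prelid3b 1.32 and the negative elongation factor gene Nelfcd 1.25. Ctsz, which encodes cathepsin Z, had 0.02 and Vamp7-ps had 0.24, and neither passed the test.

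The shift was not limited to these neighbours. Among genes whose mean reached 100 normalized counts, the 10 Mb before and after the Gnas start had medians of 0.82 (61 genes) and 0.91 (48 genes), the 4 bins of 10 Mb before that had medians between 0.16 and 0.31, and the 13 bins farther away had medians between -0.53 and -0.11. The 819 other such genes of the chromosome together had a median of -0.04. Apart from Y, the medians of whole chromosomes ran from -0.35 (chromosome 4) to 0.32 (chromosome 3). The 5 such genes of chromosome Y had a median of -9.06. The part of these differences between the lines in the results was not tested. Measured against the median of the 28 such genes within 5 Mb in the same library, Gnas was 1.69 ± 0.07 higher on the log2 scale in WT and 2.12 ± 0.18 higher in GαqKO (SD, n = 3 each), a difference of 0.43 (exact permutation p = 0.1, two-sided, the smallest that 3 against 3 allows). The part of the region in the rise of Gnas was not tested.

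**Figure D2:**
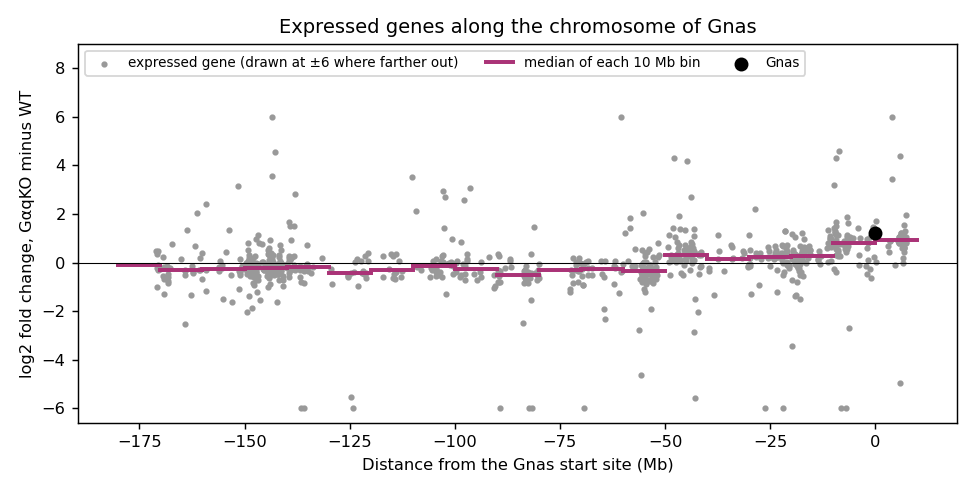
Log2 fold change of GαqKO against WT for genes of chromosome 2 whose mean reached 100 normalized counts, against the distance of their start sites from that of Gnas in Mb, with the median of each 10 Mb bin (purple lines) and Gnas (black). The bins on both sides of Gnas have medians of 0.82 and 0.91, while the 13 bins farthest from it lie below 0.

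Gnal encodes Gαolf, the Gs-like subunit of olfactory neurons and striatum, and was barely detected. It had 9.4, 7.8 and 6.1 normalized counts in WT and 11.3, 12.7 and 11.1 in GαqKO, and it passed the filter only through the GαqKO libraries. The groups did not overlap, but at this depth the log2 fold change of 0.55 (SE 0.37, 95% interval -0.24 to 1.34, adjusted p = 0.204) did not pass. With a prior spread that does not follow the expression level, an alternative added after the data had been seen, its adjusted p was 0.0222, and over all alternatives it ran from 0.0222 to 0.601.

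Neither gene of the G12/13 class passed the test. Gna13, which encodes Gα13, had 1559.0, 1638.8 and 1699.8 normalized counts in WT and 1733.4, 1593.3 and 1789.5 in GαqKO, and the groups overlapped. Its log2 fold change was 0.06 (SE 0.054, 95% interval -0.06 to 0.18, adjusted p = 0.333). Gna12, which encodes Gα12, had 175.4, 165.1 and 183.2 normalized counts in WT and 197.2, 182.7 and 195.4 in GαqKO. The lowest GαqKO library lay just under the highest WT library, and the log2 fold change was 0.13 (SE 0.10, 95% interval -0.09 to 0.36, adjusted p = 0.268).

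For Gna12 the gene model sets a further limit. Of its exon bases 67.3% lie inside Amz1, a gene on the opposite strand with 33.4, 43.7 and 30.5 normalized counts in WT and 9.4, 18.5 and 20.1 in GαqKO, and where 2 genes overlap, reads may have been counted for either or for neither. Gna13 lies on chromosome 11 (109253598 to 109292195) and Gna12 on chromosome 5 (140744158 to 140816336).

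**Figure D3:**
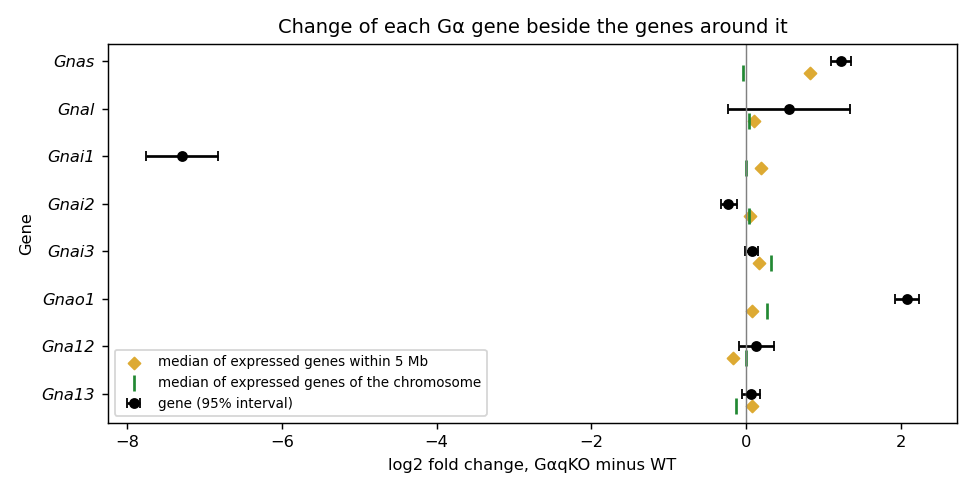
Log2 fold change of GαqKO against WT with its 95% interval (black) for the 8 tested genes, beside the median of the genes whose mean reached 100 normalized counts within 5 Mb (yellow) and on the whole chromosome (green). Gnai1 and Gnao1 lie far from both medians, Gnas lies 0.40 above a local median that is itself 0.83, and the others lie within 1 of 0.

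To compare levels between genes, normalized counts were divided by the length in kilobases of the merged exons of all transcripts of a gene. The reads were mapped to the genome, and a loss of reads that cross from an exon to the next was not tested. The order of the genes and the class shares below are not corrected for such a loss. In WT the order of the levels per kilobase was Gnai2 (1063.3), Gnai3 (833.8), Gna13 (251.9), Gnas (170.9), Gnai1 (141.2), Gnao1 (44.1), Gna12 (39.2) and Gnal (0.694). Only Gnao1 and Gna12 overlapped among neighbours in this order. In GαqKO it was Gnai2 (907.3), Gnai3 (874.1), Gnas (401.0), Gna13 (263.2), Gnao1 (185.5), Gna12 (43.0), Gnal (1.05) and Gnai1 (0.772). Here only Gnal and Gnai1 overlapped.

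By this length Gnai2 and Gnai3 were the leading genes of the group in both lines, and Gnai1 went from the fifth place to the last among those detected. The place of Gnas depends on the length used, because its merged exons (12003 bases) are much longer than its longest coding transcript (4241 bases). With the latter, Gnas was at 483.7 per kilobase in WT and took the third place, and at 1134.9 in GαqKO and took the second place, ahead of Gnai3 (894.3). By gene span Gnas (77.0) and Gnai3 (76.8) overlapped in GαqKO, and with no length correction, where levels of different genes are not comparable, Gnas had the highest count there (4813.2, against 3948.5 for Gnai2). Counting only exon bases outside other genes, Gna12 stood above Gnao1 in WT (119.7 against 49.6), and Gnai3 (948.0) and Gnai2 (907.3) overlapped in GαqKO.

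Summed by class and given as a share of the 9 genes per kilobase, the Gs class took 6.9%, 6.6% and 6.7% in the WT libraries and 15.3%, 13.8% and 15.9% in GαqKO. The groups were well apart, with means of 6.7% ± 0.18 and 15.0% ± 1.07 (SD, n = 3 each), a difference of 8.27 percentage points. The Gi/o/z class took 82.3%, 82.0% and 81.2% in WT and 73.1%, 75.2% and 72.3% in GαqKO, again without overlap, with means of 81.8% ± 0.59 and 73.6% ± 1.50 (SD, n = 3 each). For both differences the exact permutation p was 0.1 (two-sided, adjusted p = 0.15 over the 3 classes), the smallest that this design allows. The share of the G12/13 class was 11.4% ± 0.71 in WT and 11.4% ± 0.44 in GαqKO (SD, n = 3 each; exact permutation p = 1).

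**Figure D4:**
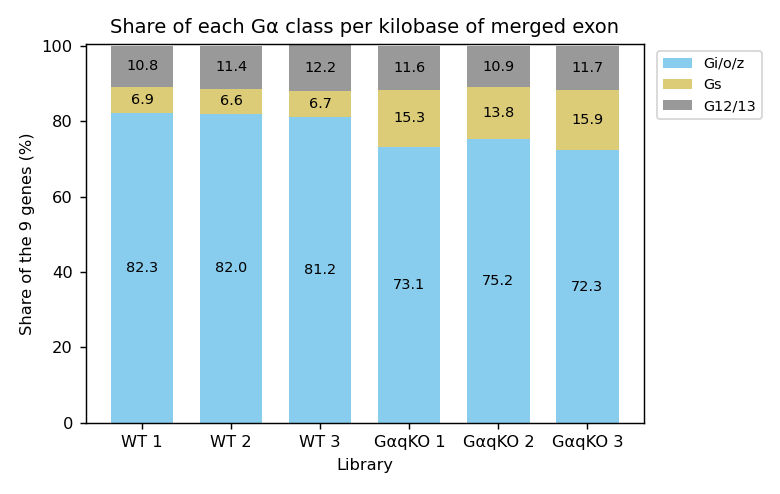
Share of the Gi/o/z (blue), Gs (yellow) and G12/13 (gray) classes in the summed level per kilobase of merged exon of the 9 Gα genes, 1 bar for each library. The Gs share is 6.6% to 6.9% in the WT libraries and 13.8% to 15.9% in the GαqKO libraries.

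The summed level of the 9 genes was 2545.1 ± 56.0 normalized counts per kilobase in WT and 2675.9 ± 51.8 in GαqKO (SD, n = 3 each). The Gs sum went from 171.6 ± 8.09 to 402.0 ± 36.2, the Gi/o/z sum from 2082.4 ± 60.2 to 1967.6 ± 8.47 and the G12/13 sum from 291.1 ± 11.8 to 306.2 ± 17.2 (SD, n = 3 each). The shares moved with the length used. With the longest coding transcript the Gs share was 13.3% and 27.6%, a difference of 14.35 percentage points, and the Gi/o/z share went from 78.3% to 64.5%. With the Gq class counted in the total, the Gi/o/z share was 64.1% in WT and 64.5% in GαqKO, while the Gs share went from 5.3% to 13.2% and the Gq share from 21.7% to 12.3%.

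Inside the Gi/o/z class the makeup differed between the groups. Gnai1 made up 6.8% ± 0.22 of the class in WT and rounded to 0.0% in GαqKO, whereas Gnao1 made up 2.1% ± 0.25 and 9.4% ± 0.15 (SD, n = 3 each). Gnai2 went from 51.0% ± 1.66 to 46.1% ± 1.07 and Gnai3 from 40.1% ± 1.32 to 44.4% ± 0.95 (SD, n = 3 each).

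Ratios within a library do not depend on the scaling between libraries. The log2 ratio of Gnai2 to Gnai3 per kilobase was 0.44, 0.36 and 0.25 in WT and 0.01, 0.13 and 0.02 in GαqKO, so both genes were nearly level in GαqKO. The groups did not overlap and differed by -0.30. The log2 ratio of Gnas to the summed Gi/o/z genes was -3.57, -3.64 and -3.61 in WT and -2.26, -2.45 and -2.19 in GαqKO, a difference of 1.31. That of Gnai1 to Gnai2 went from -2.91 ± 0.09 to -10.27 ± 0.57 (SD, n = 3 each). For these 3 ratios the exact permutation p was 0.1 (adjusted p = 0.13 over the 4 ratios), again the smallest possible. The log2 ratio of Gna12 to Gna13 was -2.68 ± 0.08 in WT and -2.61 ± 0.04 in GαqKO (SD, n = 3 each; exact permutation p = 0.2), and the groups overlapped.

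The genes whose pattern over the 6 libraries was most like that of a member were looked up among 9332 named genes whose mean reached 100 normalized counts, with Gm numbers, Rik names and repeated symbols left out, by the root mean square distance of their log2 values, each gene centred on its own mean. For Gnai1, the member with the largest change, these were Prex2 (distance 0.141), Cers4 (0.219) and Dlx3 (0.225). Prex2, which encodes an exchange factor of the GTPase Rac, had 822.8, 883.0 and 944.6 normalized counts in WT and 6.6, 3.5 and 3.0 in GαqKO. For Gnai2, the member with the highest level per kilobase, they were Fam32a (0.010), Plekha2 (0.022) and Hmgn1 (0.022), with log2 fold changes of -0.23, -0.19 and -0.22.

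The genes that act with these subunits were followed in 7 lists with 74 genes in all. Of these, 45 were tested, and in GαqKO 19 rose, 15 fell and 11 were not called. The called share was 75.6%, where it was 65.8% of all genes tested, and the median log2 fold change was 0.01. Of all genes tested 31.8% were higher and 34.1% lower. Past a log2 fold change of 1 in either direction there were 9 higher and 5 lower genes, or 31.1%, against 20.7% of all genes tested. Of the 29 genes not tested, 6 were listed at 0, and 4 of those have more than 50% of their exon bases inside other genes.

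**Figure D5:**
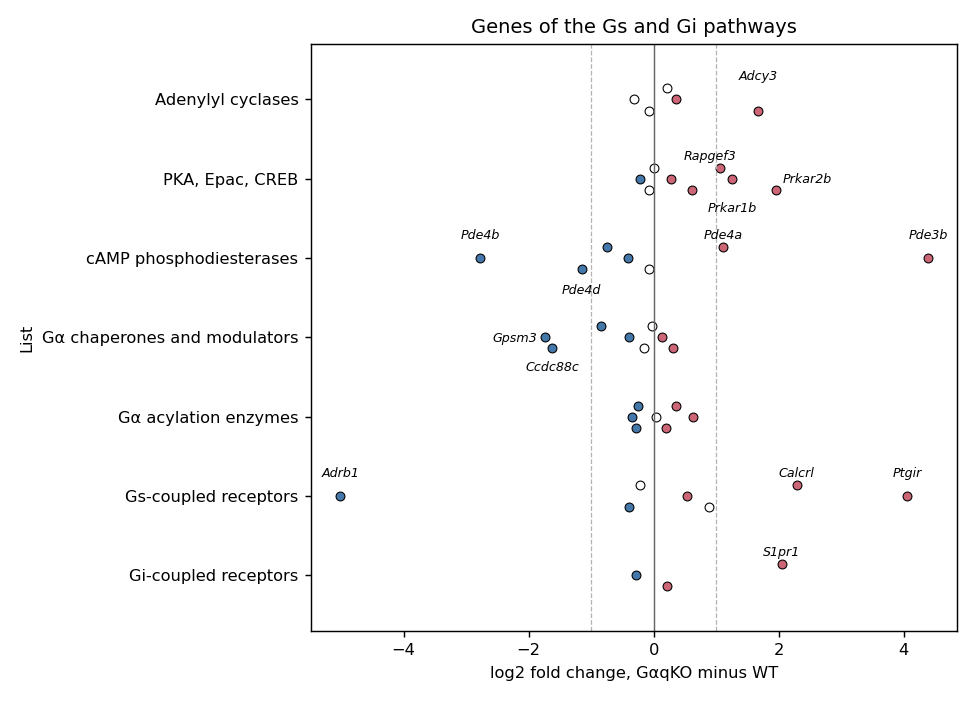
Log2 fold change of GαqKO against WT for the 45 tested genes of 7 pathway lists, filled where the adjusted p of limma is under 0.05 (red higher, blue lower) and open otherwise, with dashed lines at -1 and 1 and names for the 14 genes past them. Pde3b (4.39) and Ptgir (4.06) lie farthest to the right and Adrb1 farthest to the left, while no gene of the acylation list lies past 1.

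Most adenylyl cyclases are effectors of Gs, and several of them also of Gi. Of 10 cyclase genes 5 were tested, 2 were higher, 0 lower and 3 not called, where 65.8% of all genes tested were called. Cyclase genes were thus called less often than genes at large. At an unadjusted p under 0.05, limma called 1 lower (Adcy9, log2 fold change -0.32). Adcy3 had 98.2, 95.2 and 134.4 normalized counts in WT and 355.0, 293.7 and 395.8 in GαqKO, with a log2 change of 1.67 (SE 0.15, adjusted p = 2.51e-07). Its GαqKO libraries all lay above its WT libraries, and 30.8% of its exon bases lie inside other genes.

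Of 9 genes of the PKA, Epac and CREB list 8 were tested, 5 higher and 1 lower. The called share was 75.0%, against 65.8% of all genes tested. Prkar2b, a regulatory subunit of PKA, had 863.5, 848.1 and 726.7 normalized counts in WT and 3208.6, 3133.4 and 3068.4 in GαqKO (log2 fold change 1.95, adjusted p = 7.48e-12). Prkar1b, another regulatory subunit, went from 28.5 ± 8.01 to 68.1 ± 8.96 (1.26, adjusted p = 0.000437), and Rapgef3, the gene of Epac1, from 71.2 ± 8.0 to 149.8 ± 20.4 (1.06, adjusted p = 3.58e-05; SD, n = 3 each). The groups of these 3 genes did not overlap, which adds little, because genes were named for passing the threshold.

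The phosphodiesterases that break down cAMP moved in both directions, with 2 of the 7 tested genes higher and 4 lower. The called share was 85.7%, against 65.8% of all genes tested. Pde3b had 81.4, 96.2 and 84.5 normalized counts in WT and 1879.0, 1952.9 and 1721.0 in GαqKO, a 21.2-fold difference (log2 fold change 4.39, SE 0.084, adjusted p = 5.69e-14). Pde4a rose from 210.5 ± 18.2 to 455.9 ± 21.1 (1.11, adjusted p = 9.26e-08; SD, n = 3 each). Of the genes of the same subfamily, Pde4b fell from 213.0 ± 22.9 to 30.3 ± 2.7 (-2.77, adjusted p = 3.29e-09) and Pde4d from 220.7 ± 25.6 to 99.2 ± 11.4 (-1.15, adjusted p = 4.47e-06; SD, n = 3 each).

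Chaperones help Gα subunits fold, and modulators bind Gα subunits and act on their activity. Of 9 such genes 8 were tested, 2 higher and 4 lower, so 75.0% were called, against 65.8% of all genes tested. Ccdc88c, which encodes the non-receptor modulator Daple, had 178.6, 202.1 and 223.9 normalized counts in WT and 60.1, 68.2 and 66.5 in GαqKO (-1.62, adjusted p = 1.93e-07). Gpsm3, a G protein modulator known from blood cells, went from 14.1 ± 3.86 to 3.42 ± 0.37 (SD, n = 3 each; -1.74, adjusted p = 0.002), a low level close to the floor in GαqKO. Of the enzymes that attach or remove fatty acids on Gα subunits, 7 of 8 were tested, 3 higher and 3 lower, with none past 1. Among these enzymes 85.7% of those tested were called, against 65.8% of all genes tested. The most abundant over all 6 libraries, the myristoyltransferase gene Nmt2, had 2241.3 ± 59.0 and 2870.6 ± 143.3 normalized counts (SD, n = 3 each; 0.36, adjusted p = 1.59e-05).

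Many of the chosen receptors that couple to Gs or Gi did not pass the filter. Ptger2 and Cxcr6 were listed at 0 and have 100.0% of their exon bases inside other genes, so absence is not shown. Of 14 Gs-coupled receptor genes 7 were tested, 3 higher and 2 lower, so 71.4% were called, against 65.8% of all genes tested. Ptgir, the prostacyclin receptor, had 10.4, 9.7 and 10.2 normalized counts in WT and 172.8, 186.2 and 196.4 in GαqKO, an 18.3-fold difference (log2 fold change 4.06, SE 0.20, adjusted p = 4.61e-10). Calcrl, the receptor for calcitonin gene-related peptide and adrenomedullin, rose from 12.7 ± 4.03 to 65.7 ± 19.6 (2.29, adjusted p = 1.49e-05; SD, n = 3 each). Adrb1, the β1-adrenergic receptor, had 44.9, 49.5 and 46.8 in WT and 0.0, 2.3 and 0.0 in GαqKO, where it was under the floor of 3 normalized counts, and was thus at least 15.7-fold lower against that floor (adjusted p = 9.32e-07).

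Of 14 Gi-coupled receptor genes only 3 were tested, 2 higher and 1 lower, where 65.8% of all genes tested were called. S1pr1, a receptor for sphingosine 1-phosphate, had 32.4, 46.6 and 31.6 normalized counts in WT and 181.2, 136.4 and 146.0 in GαqKO (log2 fold change 2.05, adjusted p = 5.15e-07). Lpar1, the abundant receptor for lysophosphatidic acid, had 954.5 ± 30.4 and 1111.0 ± 4.77 (0.22; SD, n = 3 each).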

How the data were processed

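RNA sequencing of 6 MEF libraries, 3 labelled WT and 3 labelled GαqKO, was used. Per the methods of the study, the authors selected poly-A RNA, mapped 150-base paired reads to the GRCm39 build by Rbowtie2, obtained gene counts by featureCounts from GENCODE release 32, and used DESeq2. GRCm39 and featureCounts also stand in the submitters' processing notes. The strand setting and tool versions are not given in the sources used here. The deposited values are a signal, gene counts divided by 1 size factor per library (normalized counts), so a count test is not the main test. In 5 libraries 100.0% of the values were whole multiples of the worth of 1 read (tolerance 0.1 reads), which gave 9853000 to 12229175 reads on genes; the steps of GαqKO replicate 3 lie too close to 1 to be accepted.

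The main test was limma 3.58.1 (R 4.3.3) with a trend in the prior spread on log2(normalized count + 1), over the 14096 genes that reached 10 normalized counts in 3 or more libraries, and p-values were adjusted over all of them (Benjamini-Hochberg). Fold changes on this scale understate the change of low genes. Shares and ratios were tested by exact permutation over libraries, two-sided. The floor was 3 normalized counts. Names, lengths, positions and sequences came from GENCODE release 39 and the GRCm39 genome, where 56310 of 56953 identifiers matched. Of replicate pairs with recovered reads, none agreed within counting noise (chi-square per gene 2.44 to 5.5).

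The members, the lists and the alternatives were chosen with earlier results of these data known. The named pathway genes are all those past adjusted p 0.05 and a log2 fold change of 1 in size. In each list with none, the most abundant gene was named. Adcy9, Lpar1, Gabbr1, and the neighbours of Gnas and Gnai1 were named after their values were seen. A planned pathway list and a promoter are not reported here. Replicate numbers did not pair the libraries. Scripts were tested on simulated data. Alternatives covered the pseudocount, filter, scaling, replicate block, prior spread, gene length, edgeR 4.0.16 and DESeq2 1.42.0 on recovered reads, and each library left out. Python 3.11.15 was used with scipy 1.17.1.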

Additional observations from a re-analysis of the deposited data

How the results depend on the processing

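Of 269 values recomputed under an alternative, 257 kept their direction and their side of the threshold or stayed close to the main value. Among tests, Gnal became past the threshold with a prior spread without a trend (log2 fold change 0.55, adjusted p = 0.0222). With at least 10 normalized counts in every library, 1 member was lower and 3 pathway genes were lower past a log2 fold change of 1, because Gnai1 and other genes low in GαqKO are then not tested, nor is Gnal, which is low in WT. The difference in Gs share was 14.35 percentage points with the longest coding transcript, 10.64 with the gene span and 14.35 with no length. That of the Gi/o/z share was -13.79, -10.58 and -12.14, and reversed to 0.40 with the Gq class in the total. That of the G12/13 share was -2.21 with no length and 1.06 with the Gq class in the total.

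Leaving out each library in turn, the log2 fold changes ranged from 1.17 to 1.3 for Gnas, -7.51 to -7.05 for Gnai1, -0.27 to -0.19 for Gnai2, 1.98 to 2.13 for Gnao1, 0.06 to 0.08 for Gnai3, 0.41 to 0.68 for Gnal, 0.1 to 0.17 for Gna12 and 0.03 to 0.11 for Gna13. The difference in Gs share ranged from 7.81 to 8.86 percentage points, in Gi/o/z share from -9.1 to -7.65 and in G12/13 share from -0.36 to 0.35.

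Deviations of libraries with the same replicate number had correlations of -0.05, -0.15 and -0.06, so the numbers do not pair them. With the replicate number as a block, 2 members stayed higher and 2 lower (Gnai2 adjusted p = 0.00277) and 8962 genes of all tested were called, against 9279. With reads recovered in 5 libraries, 8875 genes were called by edgeR and 7411 by DESeq2, and both called 2 members higher and 2 lower. Depth limits Gnal and, in GαqKO, Gnai1. Overlapping genes limit Gna12 and Gnaz.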
